A study of Mus musculus with 4 samples.

Results

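Anti-Müllerian hormone, encoded by Amh, and its type II receptor, encoded by Amhr2, were followed as a ligand and receptor pair through single-cell RNA sequencing of mouse ovaries. The pair was chosen by name, with earlier results of these data known, and forms 2 of the 32285 genes counted in each of 4 libraries. 2 libraries came from Fosl2F/F females and 2 from Fosl2cKO females (Cyp19a1-Cre; Fosl2flox/flox) of the same litter, all 8 weeks old. The Fosl2F/F controls carry the floxed alleles as well and differ by the absence of Cre, which the Cyp19a1 promoter drives mainly in granulosa cells (GCs) of growing follicles. Fosl2 encodes a subunit of the AP-1 transcription factor, and the study asked how its loss from GCs alters the ovary. An n of 2 per group was stated for the experiment, the same as the number of libraries, without saying whether each library held 1 animal, so p-values below measure the spread between libraries.

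AMH is a hormone of the TGF-β family that GCs of small growing follicles secrete. It binds AMHR2, which then recruits a type I receptor and passes the signal through SMAD1, SMAD5 and SMAD9 with SMAD4. In the ovary AMH is known for restraining the recruitment of primordial follicles and for lowering the response of small follicles to follicle-stimulating hormone, and its expression is known to fade as follicles reach the late antral stage. Amh (ENSMUSG00000035262) is transcribed from the plus strand of chromosome 10, at 80805243 to 80807648 in GRCm38. Its start is only 318 bases beyond the end of Sf3a2, a splicing factor gene on the same strand. Amhr2 (ENSMUSG00000023047) lies on chromosome 15 from 102445367 to 102454633, also on the plus strand, 8962 bases beyond Sp1. The libraries count the 3′ ends of transcripts, so a UMI (a tag that marks 1 captured RNA molecule) gives no view of the rest of either gene.

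The stretch of 250 bases before the RefSeq start of Amhr2 is shown because the knocked-out factor belongs to AP-1. The promoters used held no entry for Amh, so no such stretch is shown for it. The Amhr2 stretch runs from chr15:102445117-102445366 on the plus strand of GRCm38.p6. Capitals mark the 1 match, on either strand, to CAAGGTCA, the site of the orphan nuclear receptor NR5A1.
Amhr2 upstream: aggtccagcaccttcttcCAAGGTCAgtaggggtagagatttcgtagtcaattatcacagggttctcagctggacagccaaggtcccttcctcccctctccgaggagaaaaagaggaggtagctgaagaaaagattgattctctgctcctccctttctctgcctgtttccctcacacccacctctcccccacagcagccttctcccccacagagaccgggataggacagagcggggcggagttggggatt
The match starts 232 bases before the transcript start, and 1.33% of 32851 RefSeq promoters of this length held the same letters. TGANTCA, the AP-1 site, had no match on either strand of this window, while 6.75% of all promoters held it. The GATA factors bind AGATAA and the forms AGATAG and TGATAG, none of which was found, and also TGATAA, which was. It stood on the minus strand, where its match starts 199 bases before the transcript start, and is left in lower case above. At least 1 of these 4 forms stood in 26.5% of all promoters. A match describes letters and not a site in use, and a missing one says nothing of sites elsewhere in the locus.

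After filtering, 41538 cells were kept, of which 15778 were GC-like. Fosl2F/F replicate 2 stood apart, with 19575 cells at a median of 3656 UMIs, against 6760 to 8150 cells at medians of 11177 to 12465 in the other libraries. Between 15 and 81 cell barcodes were shared by any pair of libraries. Fosl2 itself measured 161, 166, 167 and 114 CPM (UMIs scaled to 1000000 per class and library) in GC-like cells of Fosl2F/F replicates 1 and 2 and the libraries labelled Fosl2cKO replicates 1 and 2. The log2 fold change was −0.25 ± 0.21 (SE, edgeR adjusted p = 0.999). The study describes LoxP sites that flank exons 2 and 4, and exon 4 is the last exon of the gene. Its text also places the sites around the coding sequences, which need not take in the counted 3′ end. The positions of the sites are not given, so whether that end is deleted is not known. By immunoblot, the study showed Fosl2 protein to be depleted in GCs of Fosl2cKO mice. In GC1, the cluster described below with the highest Cyp19a1 (222 ± 189 CPM), Fosl2 measured 236, 216, 290 and 137 CPM. The Fosl2 level of the first library labelled Fosl2cKO thus lay above both controls in these cells, and only the second was below them. In luteal-like cells Fosl2 measured 163, 193, 199 and 305 CPM, with both libraries labelled Fosl2cKO above both controls. Whether Fosl2 UMIs follow the deletion was not tested. In GC3, GC4 and GC5 both libraries labelled Fosl2cKO lay below both controls without a call. The log2 fold changes there were −0.54, −0.34 and −0.42 (lowest edgeR adjusted p = 0.449).

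The 1 gene called in GC-like cells, Plb1, set both libraries labelled Fosl2cKO apart from both controls. Plb1 encodes a phospholipase and is named here after its values were seen. It is the next protein-coding gene beyond Fosl2, on the same strand of chromosome 5 (32232708 to 32366520 in GRCm38, 74865 bases from the end of Fosl2). In GC-like cells the controls measured 0.098 and 0.052 CPM of it, against 478 and 226 CPM for those labelled Fosl2cKO, the higher value in the first. It was called in 8 of 8 GC clusters, and in the same 8 when the only library labelled Fosl2cKO in the fit was the first. In all GC-like cells that fit called it too, while edgeR called 0 genes without Fosl2F/F replicate 1 or without replicate 2 (980 and 1885 genes at an unadjusted p under 0.05). In luteal-like cells it stood at 0.85 and 0.37 against 2145 and 3687 CPM.

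Amh was a GC transcript. GC-like cells held 97.0% ± 1.4 (SD, n = 4 libraries) of all Amh UMIs, and the gene measured 201 ± 52.9 CPM there. In the 4 libraries the GC level was 133, 186, 249 and 237 CPM, in the order given for Fosl2. Oocyte-like cells came next at 0, 21.8, 53.9 and 25.6 CPM, from 0 to 9 Amh UMIs a library, below the GC-like cells in every library. Every other class averaged 14.3 CPM or less, and below the GC-like cells no neighbours in the order had separate ranges over the libraries.

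Amh outside GCs was low enough to be set beside free RNA. Free RNA in a cell suspension enters all droplets and keeps its genes in 1 ratio within a library, so Amh was counted per 100 UMIs of Inha, the inhibin alpha subunit and the most abundant GC marker used. In stromal-like cells that ratio was 1.65, 4.05, 5.92 and 5.53 in the 4 libraries. In GC-like cells of the same libraries it was 1.82, 4.06, 6.13 and 6.03. The values ran side by side in every library. Other classes tracked it less closely. Epithelial-like cells had 0.65, 4.65, 4.71 and 7.14 on few UMIs, and macrophage-like cells ranged from 1.14 to 12.3. Luteal-like (1.05 on average) and theca-like cells (0.947) lay below the GC-like cells (mean 4.51) in every library, so their Inha did not come with Amh in the GC ratio. With each cell thinned to 2000 UMIs, 1.24% ± 0.17 of stromal-like and 1.79% ± 1.41 of macrophage-like cells held an Amh UMI, which is read as background, against 23.6% ± 7.8 of GC-like cells. In oocyte-like cells the ratio ranged from 0 to 45.5, on 281 Inha UMIs in all, so their Amh level was not separated from that of attached GCs at this depth.

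Amhr2 had a wider reach than its ligand. It was highest in epithelial-like cells, the covering of the ovary marked by Krt18, Upk3b and Lgals7, at 357, 242, 355 and 312 CPM in the 4 libraries (mean 316 ± 53.6). GC-like cells followed at 119, 137, 163 and 120 CPM (mean 135 ± 20.7), below the epithelial-like cells in every library and with separate ranges. Oocyte-like cells averaged 48.0 ± 37.3 CPM, again on few UMIs, and the next classes overlapped with them and with each other. Luteal-like cells held 45.4, 12.2, 69.9 and 53.7 CPM. Theca-like cells held 60.5, 30.4, 31.4 and 24.9 CPM, and stromal-like cells 14 ± 3.3 CPM. Because GC-like cells are so much more numerous, they still held 77.8% ± 5.2 of all Amhr2 UMIs, against 8.36% ± 2.63 from epithelial-like cells.

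Amhr2 was above the GC ratio in part of the other classes. Per 100 Inha UMIs, GC-like cells held 2.93 Amhr2 UMIs on average, epithelial-like cells 258.5, luteal-like cells 11.8, stromal-like cells 11.7 and theca-like cells 7.30. The lowest epithelial-like library, at 122, was far above the highest GC-like one, at 4.03. Luteal-like, stromal-like and theca-like cells were above the GC-like cells in every library as well, but so were macrophage-like cells, on few UMIs (1.71, 5.21, 10.2 and 5.96, against 1.63 to 4.03 in GC-like cells). The ratio alone therefore did not separate theca-like cells, at 4.45, 6.38, 12.4 and 5.97, from a class of immune cells. Pericyte or smooth muscle-like (3.44), dendritic-like (1.35), endothelial-like (4.60), lymphatic endothelial-like (5.90), B-like (4.83) and NK or T-like cells (5.08) lay above the GC-like cells in part of the libraries. By cells, an Amhr2 UMI was found in 2.12% ± 1.44 of thinned macrophage-like and 1.24% ± 1.43 of thinned endothelial-like cells, which is read as background. Stromal-like cells were little above that at 2.82% ± 0.40. Theca-like cells had 6.82% ± 3.19, luteal-like cells 9.22% ± 4.56 and epithelial-like cells 44.1% ± 9.3. In the epithelial-like class 3007 Amhr2 UMIs stood beside 46 of Amh over the 4 libraries.

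**Figure D1:**
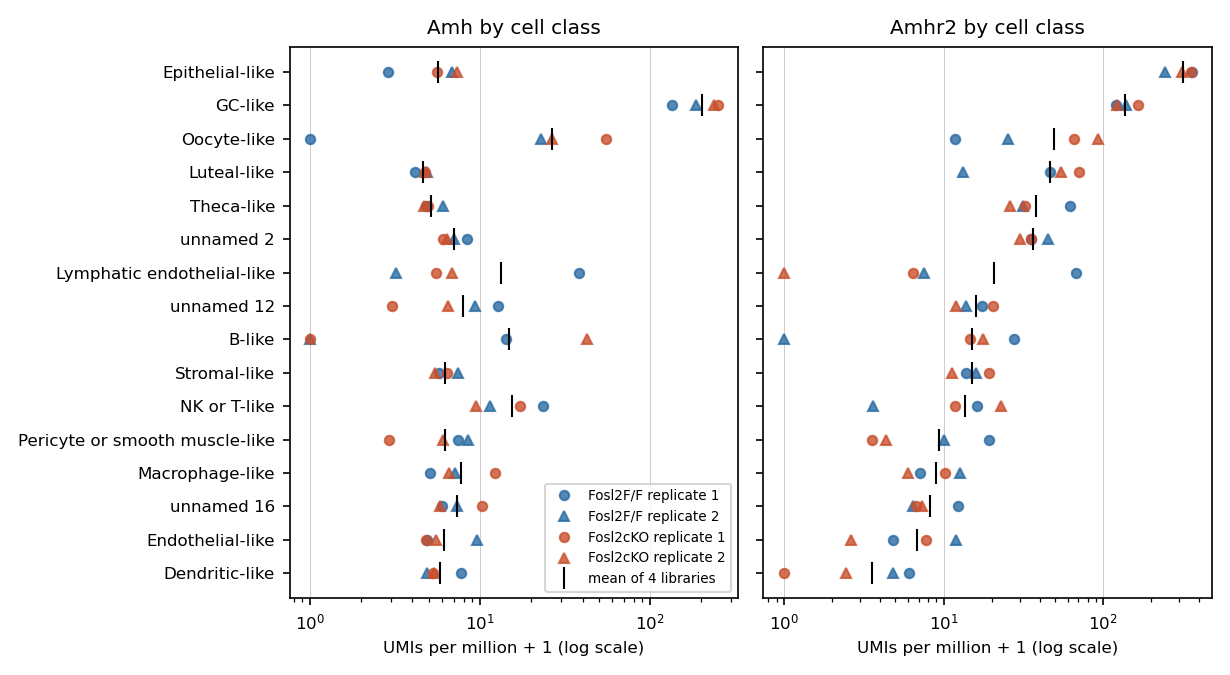
Amh (left) and Amhr2 (right) in each cell class, in CPM plus 1 on a log scale, with 1 point per library and a bar for the mean of 4 libraries. Amh stands out in GC-like cells at a mean of 201, and Amhr2 is highest in epithelial-like cells at a mean of 316.

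Within GCs, clustering was run without Amh and Amhr2 so that neither gene could shape the clusters. 8 clusters resulted. GC0 carried cumulus or preantral markers (Itga6, Gatm, Col18a1), GC1 mural markers (Lhcgr, Prlr) and GC2 atretic markers (Ghr, Itih5). GC5 was named antral with glycolytic genes from Cox4i2, Ndufa4l2, Slc16a3 and Ldha alone. The antral part of that name had no marker of its own. GC3, GC6 and GC7 carried mitotic genes. GC7, the smallest at 514 cells, was led by Gm26917, Apobec1 and Gm35188, with 1 listed mitotic marker (Ube2c) among its leading genes. At resolutions of 0.3 and 0.8, clusters led by Gm35188 or Gm26917 were left unnamed. GC7 was also shallow, at medians of 1947 to 4828 UMIs by library. GC4 had too few state markers for a name. These names are only as good as their markers, and the mitotic clusters and GC5 in particular can hold cells of several follicle stages. The borders between clusters were not fixed either, since calling 1 more cell per library a doublet, tried after seeing the data, gave 9 clusters.

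Amh spanned a wide range over these states. GC4 stood at 518, 478, 462 and 510 CPM (mean 492 ± 26.7), and the mitotic GC6 overlapped with it at 466 ± 42.3 CPM. GC0, the cumulus or preantral-like cluster, was lower at 238 ± 37.7 CPM, with a range separate from both. Thinned to 2000 UMIs, 53.2% ± 0.98 of GC4 cells and 51.7% ± 6.0 of GC6 cells had an Amh UMI. The mitotic GC7 averaged 311 ± 190 CPM and GC5 174 ± 152 CPM, with libraries far apart. The atretic-like GC2 averaged 34.2 ± 24.5 CPM.

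The mural-like GC1 had the lowest mean, at 5.40, 23.2, 50.4 and 29.6 CPM (mean 27.1 ± 18.6), but it was below GC2 in only 2 of 4 libraries and their ranges overlapped. In GC1, 3.81% ± 2.31 of its thinned cells had an Amh UMI. Its level depended on where the cluster was divided. At a finer resolution of 0.8, cells led by Grem1 and Inhba, at 68.1 ± 73.3 CPM of Amh, formed a cluster apart from the mural-like cells led by Lhcgr, which held 7.56 ± 2.88 CPM. With 1 more cell per library called a doublet, the cells led by Lhcgr were apart as well, at 7.90 ± 3.45 CPM. That level is near those of classes in which Amh was read as background.

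Amhr2 varied less and in another order. The cumulus or preantral-like GC0 was highest at 304, 244, 337 and 233 CPM (mean 279 ± 49.5), with a range above that of every other GC cluster. GC4 (164 ± 25.9), GC6 (159 ± 29.8), GC2 (120 ± 35.3) and GC7 (117 ± 32.4) followed with overlapping ranges. The mural-like GC1, with the lowest mean Amh, kept 87.4, 82.4, 123 and 77.9 CPM of Amhr2 (mean 92.7 ± 20.7), and 18.1% ± 3.9 of its thinned cells had a UMI. The lowest level was in the mitotic GC3 at 74.4 ± 19.7 CPM. Over the 8 GC clusters the mean log2 levels of both genes had a Pearson correlation of 0.59, a description over clusters that share libraries.

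**Figure D2:**
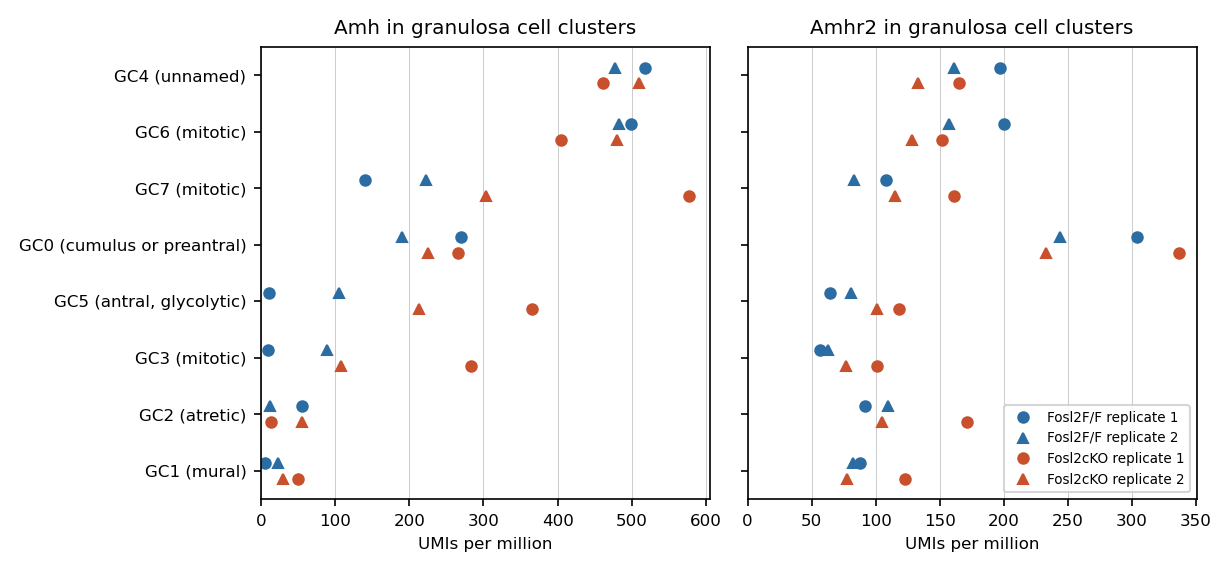
Amh (left) and Amhr2 (right) in the 8 GC clusters, in CPM, with 1 point per library and clusters in the order of their mean Amh. Amh falls from a mean of 492 in GC4 to 27.1 in GC1, while Amhr2 keeps 92.7 in GC1, and GC7, GC5 and GC3 show the widest spread of Amh over the libraries.

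The same contrast appeared without clusters, by counting Inhba, the inhibin beta A subunit that rises in antral GCs, in each thinned GC-like cell. In cells with no Inhba UMI, Amh measured 288, 259, 333.5 and 295 CPM in the 4 libraries. In cells with 4 or more Inhba UMIs it measured 5.95, 38.5, 47.4 and 41.4 CPM. Amh was lower in the last bin than in the first in 4 of 4 libraries. Amhr2 went from 188 ± 31.9 to 85.3 ± 22.9 CPM over the same bins and was still detected in 15.4% ± 3.7 of the cells richest in Inhba.

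For Lhcgr, the luteinising hormone receptor that marks preovulatory mural GCs, Amh averaged 201 ± 52.8 CPM in cells with no UMI and 57.1 ± 43.8 CPM in cells with 1. Amhr2 averaged 145 ± 29.0 and 108 ± 40.4 CPM in those bins. More Lhcgr UMIs were held by few cells outside Fosl2F/F replicate 1. In that library 317 cells had 2 to 3 and 166 had 4 or more, and Amh measured 1.58 and 9.04 CPM in these bins, while Amhr2 measured 91.5 and 114.5 CPM. In Fosl2F/F replicate 2 the same bins held 135 and 25 cells, with Amh at 44.4 and 0 CPM and Amhr2 at 81.5 and 100 CPM. The libraries labelled Fosl2cKO had 24 and 18 cells in the bin of 2 to 3 and 5 and 1 in the last. The thinned cells are not free of chance zeros, so a cell with no Inhba or Lhcgr UMI may still express the gene.

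**Figure D3:**
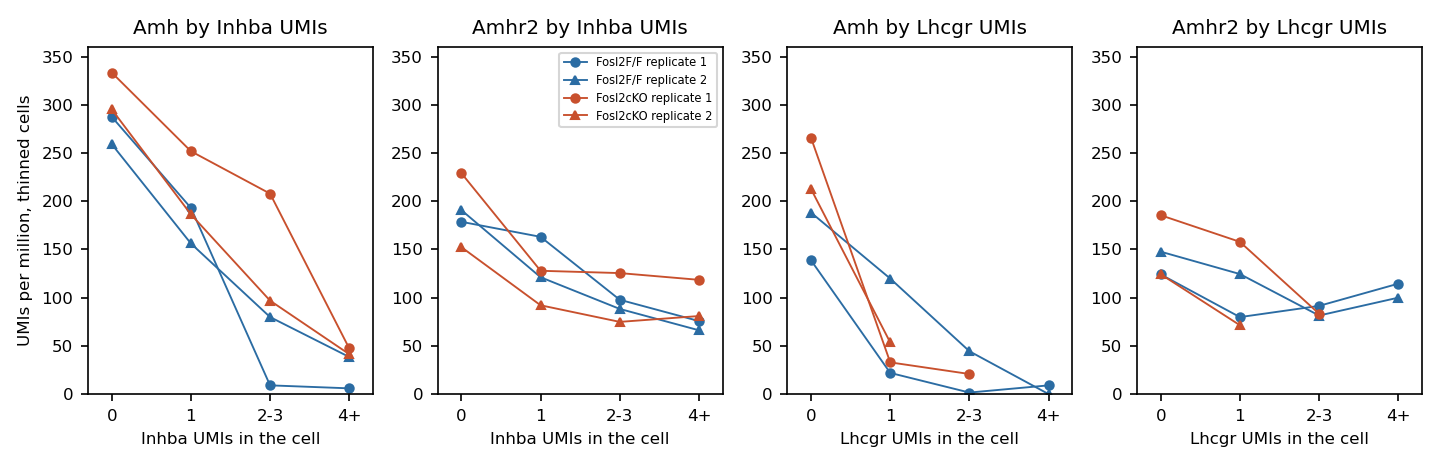
Amh and Amhr2 in GC-like cells thinned to 2000 UMIs, by the number of Inhba or Lhcgr UMIs in the cell, in CPM, with 1 line per library and bins under 20 cells left out. The Amh lines drop steeply with Inhba and Lhcgr, and the Amhr2 lines drop less, with Fosl2F/F replicate 1 at 114.5 CPM in its last Lhcgr bin.

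Ligand and receptor were then counted in the same cells. Over all thinned GC-like cells, an Amhr2 UMI was present in 29.5% ± 5.0 of cells with an Amh UMI and in 21.7% ± 4.5 of cells without one, higher in 4 of 4 libraries. The difference was 18.1 percentage points in Fosl2F/F replicate 1 and 7.88, 1.998 and 3.32 in the other libraries. Inside GC0 it averaged 1.64 ± 2.07 points, with Fosl2cKO replicate 1 in the opposite direction. In GC4 it was 4.44 ± 2.86 points and above 0 in all 4 libraries, the lowest at 0.26, and in GC6 it was 1.91 ± 2.77 points. The mean over all GC-like cells, 7.82 points, rested on Fosl2F/F replicate 1 and was 4.40 points without it, against 3.86 points in GC4. In the library labelled Fosl2cKO replicate 2, the differences inside GC4 (4.96 points) and GC0 (3.60 points) were larger than over all GC-like cells. Cells holding both transcripts made up 6.81% ± 2.13 of GC-like cells, and 60.0% ± 9.3 held neither at this depth, which counts capture and not expression.

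**Figure D4:**
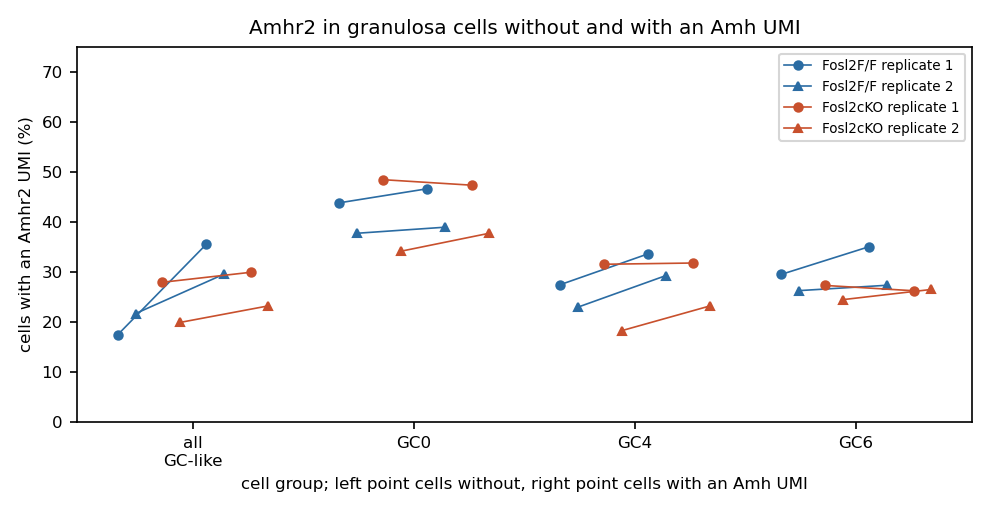
Share of thinned cells with an Amhr2 UMI, in percent, among cells without (left point) and with (right point) an Amh UMI, for all GC-like cells and for the clusters with at least 20 Amh-positive cells in every library. All 4 lines rise for all GC-like cells, while Fosl2cKO replicate 1 falls within GC0 and GC6 and Fosl2cKO replicate 2 rises by 3.60 points within GC0 against 3.32 over all GC-like cells.

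The comparison of genotypes asked whether loss of Fosl2 from GCs moved the pair. Every direction given rests on the labels. Over all GC-like cells, the Fosl2 level of the first library labelled Fosl2cKO was not below the controls. Whether Fosl2 UMIs follow the deletion was not tested. Plb1 divided all 4 libraries along the labels. In all GC-like cells Amh was higher in both libraries labelled Fosl2cKO (249 and 237 CPM) than in both Fosl2F/F libraries (133 and 186 CPM). The log2 fold change was 0.58 ± 0.19 (SE), which did not pass the test over all genes (edgeR quasi-likelihood test, adjusted p = 0.999). How many of all genes separate the groups as Amh did was not counted, here or in the comparisons below. With 2 libraries a group, such a separation alone gives an exact two-sided permutation p of 0.33. Amhr2 overlapped between groups, at 119 and 137 CPM for Fosl2F/F and 163 and 120 CPM for those labelled Fosl2cKO, with a log2 fold change of 0.12 ± 0.19 (adjusted p = 0.999). Calls needed a log2 fold change of more than 0.25 in size beside an adjusted p below 0.1. Of 17256 genes tested in GC-like cells, 1 was called, or 0.0058%, so 0 of 2 members is what nearly all genes gave, and 817 genes had an unadjusted p under 0.05. DESeq2 called 169 genes there, or 0.979%, and neither member.

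By cells rather than UMIs, 13.3% (95% Wilson interval 12.3 to 14.3) and 24.2% (23.2 to 25.3) of thinned GC-like cells held an Amh UMI in Fosl2F/F replicates 1 and 2. In the libraries labelled Fosl2cKO the shares were 32.2% (30.3 to 34.2) and 24.7% (23.0 to 26.5). The groups did not overlap, but the second library of each differed by little, and the difference of 9.71 points had an exact two-sided permutation p of 0.33, the smallest that 2 against 2 libraries allow. Unthinned, the shares were 29.9%, 40.6%, 64.5% and 61.1%, a wider gap that moves with depth. For Amhr2 the thinned shares were 19.9%, 23.6%, 28.5% and 20.7% (exact permutation p = 0.667). Intervals cover counting error only.

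The libraries also differed in Inhba, which measured 2666, 1111, 858 and 957 CPM in GC-like cells, highest where Amh was lowest. Its own difference did not pass the test (log2 fold change −1.10 ± 0.41, edgeR adjusted p = 0.999). Fosl2F/F replicate 1 also stood apart in its mix of cells. GC-like cells made up 56.1% of it, against 33.8%, 32.5% and 33.8% of the other libraries in the order given. The mural-like GC1 made up 32.4% of its GC-like cells, against 15.1%, 16.5% and 13.7%. With each of the 8 clusters at equal weight in a library, the Amh level was 188 and 200 CPM for Fosl2F/F against 303 and 241 CPM for those labelled Fosl2cKO. The log2 ratio of the group means was then 0.48, against 0.61 for all GC-like cells pooled. Among cells with no Inhba UMI it was 0.20, from the values given above, which did not overlap between groups. How much of the pooled difference is the mix of states was not tested.

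Among the clusters, Amh differed most between groups in GC5, the cluster with glycolytic genes, and in the mitotic GC3. In GC5 the level was 11.2 and 105 CPM for Fosl2F/F and 366 and 213 CPM for those labelled Fosl2cKO (log2 fold change 2.31 ± 0.81, edgeR adjusted p = 0.398). In GC3 the levels were 8.89 and 88.6 CPM, then 284 and 107 CPM (1.99 ± 0.92, adjusted p = 0.621). Fosl2F/F replicate 1 was far below the other libraries in both clusters. The mural-like GC1 gave 1.51 ± 0.61 (adjusted p = 1.0) at its low level, and the mitotic GC7 gave 1.38 ± 0.52 (adjusted p = 0.626), from 140 and 222 against 577 and 304 CPM. Inhba in the same cells of GC5 was 2928 and 1382 CPM for Fosl2F/F and 640 and 1216 CPM for those labelled Fosl2cKO. In GC3 it was 3993 and 2279 against 1061 and 1986 CPM.

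These values rested on few libraries. GC5 passed without Fosl2F/F replicate 2 (4.60, edgeR adjusted p = 0.0774), in a fit that called 0.249% of all genes. It also passed without Fosl2cKO replicate 2 (2.63, adjusted p = 0.000413), where 2.54% of all genes were called. Without the same library GC3 passed (2.51, adjusted p = 7.14e-05) beside 2.18% of all genes, and GC7 passed (1.86, adjusted p = 9.25e-06) beside 8.35%. Without Fosl2cKO replicate 1, Amh gave 1.88 in GC5, 1.15 in GC3, 1.08 in GC1 and 0.78 in GC7, and none was called. In all of these fits the lone library is assumed to vary like the other group. Without Fosl2F/F replicate 1 the values were 1.44 in GC5, 1.13 in GC3, 1.09 in GC7 and 0.75 in GC1, and none passed. These fits called hardly any gene, with 0.00806% of all genes in GC5, 0.00733% in GC3 and 0% in GC7 and GC1, where 110 and 383 genes had an unadjusted edgeR p under 0.05. With the genes of low counts kept in the fit, GC5, GC3 and GC1 passed (adjusted p = 1.22e-26, 4.95e-19 and 0.000132), where 3.71%, 3.08% and 1.4% of all genes were called. DESeq2 called none of the 4, beside 1.45% of all genes in GC5, 1.24% in GC3, 0.648% in GC1 and 0.0544% in GC7.

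In GC4 and GC6, where Amh was most abundant, the groups lay close together. The log2 fold change was −0.13 ± 0.24 in GC4 and −0.20 ± 0.21 in GC6, and GC0 gave 0.04 ± 0.24. In GC2 it was −0.11 ± 0.79, with libraries of both groups at the top and at the bottom. For Amhr2 the values ran from −0.41 ± 0.21 in GC6 to 0.56 ± 0.48 in GC7, with 5 clusters above 0 and 3 below. Amhr2 in GC5 and GC3 was 0.53 ± 0.18 and 0.53 ± 0.19 (edgeR adjusted p = 0.391 and 0.539), with both libraries labelled Fosl2cKO above both others. None of the 16 cluster values for the pair was called. The share of all genes called was 0.0996% in GC0, 0.00781% in GC1, 0.00756% in GC2, 0.00746% in GC3, 0.00783% in GC4, 0.00824% in GC5, 0.00813% in GC6 and 0.272% in GC7.

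Outside GCs neither member was called in any class in which it was tested. In epithelial-like cells, the class richest in receptor, Amhr2 had a log2 fold change of 0.12 ± 0.32 (edgeR adjusted p = 1.0). In luteal-like cells it was 1.0 ± 0.61 (adjusted p = 0.557), with Fosl2F/F replicate 2 alone at a low 12.2 CPM. In theca-like cells it was −0.79 ± 0.35 (adjusted p = 1.0), with Fosl2F/F replicate 1 alone at a high 60.5 CPM. In pericyte or smooth muscle-like cells it was −2.13 ± 0.61 (adjusted p = 0.999), on 4 to 17 UMIs a library. Oocyte-like cells were not tested, since 1 library held only 19 of them. Of all genes, 0.116% were called in epithelial-like, 0.0156% in luteal-like, 0.0545% in theca-like and 0.156% in stromal-like cells. In endothelial-like cells it was 0.248%, in macrophage-like cells 0.166% and in NK or T-like cells 0.084%. In pericyte or smooth muscle-like cells edgeR called 0%, and 310 genes there had an unadjusted p under 0.05. In the clusters left unnamed, led by Star and Hao2 (cluster 2), by Myh11 (cluster 12) and by Enpep and Hmmr (cluster 16), it was 0.0966%, 0.0445% and 0.088%.

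**Figure D5:**
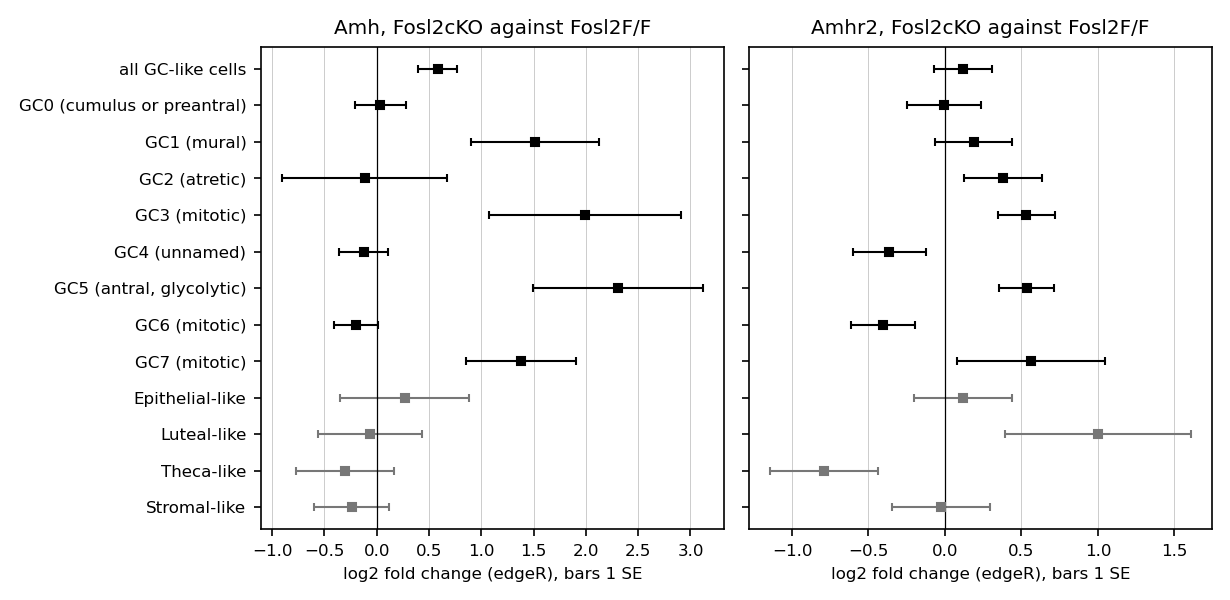
Log2 fold change of Amh (left) and Amhr2 (right), Fosl2cKO against Fosl2F/F, from the edgeR fit, with bars of 1 SE, in all GC-like cells, the 8 GC clusters and 4 other classes. The largest Amh values are 2.31 in GC5 and 1.99 in GC3, with wide bars, and none passed the test.

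The rest of the pathway was followed through 31 genes grouped by role. All 31 were tested in GC-like cells. There edgeR called 0 of them and DESeq2 3 (Lhcgr, Smad7 and Gdf9), against 0.979% of all genes by DESeq2. Gdf9 is one of the 6 oocyte markers, which together measured 16.8, 82.5, 4.33 and 15.5 CPM in GC-like cells of the 4 libraries. An unadjusted edgeR p under 0.05 was given to 5 of the 31 and to 4.73% of all genes, and the median log2 fold change was −0.12, against −0.02 over all genes tested. In single clusters and classes, edgeR called Lhcgr in GC7 and Pcsk5 in the B-like cells. The B-like cells numbered 22 to 49 a library, 1.97% of all genes were called in them, the GC genes Inha and Inhba included, and Pcsk5 rested on 28, 3, 0 and 0 UMIs. Among the type I receptors that pair with AMHR2, Bmpr1b measured 1386.5 ± 215 CPM, Bmpr1a 143 ± 18.5 and Acvr1 45.1 ± 4.3 in GC-like cells. Bmpr1b was at 264 ± 52.3 CPM in luteal-like cells and at 41.2 ± 18.9 CPM in the receptor-rich epithelial-like cells, while Bmpr1a was at 210 ± 16.8 CPM in the epithelial-like cells.

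The SMADs that carry the signal were not even over the GC states. Among the GC clusters, Smad1 and Smad5 were highest in the cumulus or preantral-like GC0 (90.4 ± 13.1 and 64.8 ± 5.8 CPM), the cluster with most Amhr2. Both were lower in the mural-like GC1 (37.1 ± 3.0 and 29.2 ± 1.6 CPM). Smad9 was low and did not follow them, at 0.92 CPM in GC0 and 1.70 CPM in GC1. Smad4, the common partner, measured 100.4 ± 10.8 and 102 ± 15.4 CPM in these clusters. The target Id3 ran the other way from Smad1 and Smad5, at 244 ± 44.3 CPM in GC0 and 580.4 ± 249 CPM in GC1. Ids answer to several BMP ligands and not to AMH alone.

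Smad7, which encodes an inhibitory SMAD, had the lowest edgeR p among the 31 genes without passing the test over all genes. Its level was 48.2 and 51.7 CPM for Fosl2F/F, then 92.5 and 134 CPM for those labelled Fosl2cKO (log2 fold change 1.16 ± 0.22, edgeR adjusted p = 0.497). The groups were separate in stromal-like cells as well, at 24.0 and 34.5 against 53.5 and 66.2 CPM. How many genes separate in this way in that class was not counted. Plb1 was among the 24 genes called in stromal-like cells, and the cause of these differences was not tested. Among Id1 to Id4, all 4 values in GC-like cells were below 0 and none was called (−0.33, −0.56, −0.39 and −0.48). All 4 were below 0 in GC1 as well, and in GC0 2 of the 3 tested. In GC4, 2 were above 0 and 2 below.

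AMH has to be cleaved to bind its receptor. Of the convertases that can do so, Pcsk6 was at 398 ± 43.6 CPM in GC0 and 44.0 ± 22.0 CPM in GC4, but it is one of the markers that named GC0. Furin was low, at 16.8 ± 0.93 CPM in GC-like cells. Pcsk5 had the highest mean of the convertases listed in GC-like cells, at 104 CPM, with 122 CPM in GC1 and 70.5 CPM in GC4. Among the transcription factors known to act on Amh, Gata4 (279.8 ± 29.7 CPM), Gata6 (197 ± 17.4 CPM) and Foxl2 (80.1 ± 8.6 CPM) were present in GC-like cells, and Sox9, the testicular activator, measured 6.21 ± 1.5 CPM. Wt1 was at 709.5 ± 169 CPM in GC0 and 27.2 ± 15.7 CPM in GC1, and at 1467 ± 282 CPM in epithelial-like cells, where Amh was at background. Nr5a1, whose site is in capitals in the Amhr2 sequence above, measured 152 ± 26.1 CPM in theca-like cells and 21.5 ± 2.8 CPM in epithelial-like cells, where Amhr2 was highest.

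The list of genes that AMH is known to lower in GCs held Fshr, Lhcgr, Cyp19a1 and Kitl, which did not run alike over the cell states. Fshr, the receptor of follicle-stimulating hormone, had its lowest means in the clusters GC0 (59.5 ± 26.7 CPM), GC6 (281 ± 177 CPM) and GC4 (312 ± 216 CPM). The other clusters averaged from 376 to 507 CPM, with ranges that overlapped those of GC6 and GC4. Kitl, the KIT ligand, had its highest mean in GC0 (591 ± 146 CPM), and the other clusters averaged from 106 to 311 CPM, with GC1 and GC2 overlapping its range. Between genotypes the 4 genes had log2 fold changes below 0 in GC-like cells, and edgeR called none of them. Their median was −1.05 against −0.02 over all genes. In GC1 all 4 were below 0 as well, and in GC0 3 of them. In GC4, with the highest mean Amh, 2 were above 0 and 2 below, with a median of 0.02. In all GC-like cells Fshr gave −0.21 ± 0.72 and Kitl −0.12 ± 0.39, with groups that overlapped (both edgeR adjusted p = 0.999). Lhcgr measured 201, 77.4, 36.6 and 29.5 CPM in GC-like cells of the 4 libraries (log2 fold change −2.12 ± 0.45, edgeR adjusted p = 0.589). Within GC7 it was called (−3.78 ± 0.59, edgeR adjusted p = 4.59e-07), in a cluster where 0.272% of all genes were called, and DESeq2 called it there too, with 0.0544% of all genes. The call was lost without Fosl2F/F replicate 1 (−3.24, edgeR adjusted p = 0.124), in the fit given above that called 0% of all genes, and in cells under 5% mitochondrial UMIs (−3.59, edgeR adjusted p = 0.328, in a fit that called 0.0212% of all genes). Cyp19a1 in GC-like cells gave −1.89 ± 0.59 (adjusted p = 0.993). Of the oocyte ligands that act on GCs, Gdf9 and Bmp15 were at 1699 ± 580.2 and 556 ± 254 CPM in oocyte-like cells. They were at 5.65 and 1.85 CPM in GC-like cells. Bmp6, also on that list, was not restricted in this way. It measured 74.1 ± 36.0 CPM in oocyte-like, 42.2 ± 8.9 CPM in GC-like and 176 ± 47.3 CPM in epithelial-like cells.

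The genes most like each member were sought over the 8 GC clusters and 15 other classes or clusters, among 12403 genes with at least 20 CPM in 1 of them. Closest to Amh was Slc18a2, the vesicular monoamine transporter, with a Pearson correlation of 0.95 of mean log2(CPM + 1), followed by Wfdc10, Slc25a42, Myo5c, Cntn4, Lnx1, Mycl and Apoa1 (0.95 to 0.92). Within the 8 GC clusters alone, Mycl was at 0.93 and Slc25a42 at 0.90. Closest to Amhr2 were Zfp612 (0.95), Cd320, Nkain2, Lrrc2, Bex1, Epha7, Syt14 and Plekha7 (0.92 to 0.91). Lrrc2 and Epha7 were at −0.81 and −0.70 within the GC clusters, so their likeness rests on the contrast between classes. All points share the same 4 libraries.

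The neighbours on the chromosome were read as well, because transcription can run on from 1 gene into the next. Sf3a2 measured 80.6 ± 13.4 CPM in GC4 and 41.6 ± 7.7 CPM in GC1, a far smaller range than that of Amh, and 31.4 ± 2.6 CPM in epithelial-like cells, where Amh was at background. Jsrp1, on the opposite strand beyond Amh, was at 15.4 ± 3.9 CPM in GC-like cells. Prr13, the next gene beyond Amhr2, was at 133 ± 32.3 CPM in epithelial-like and 127 ± 71.9 CPM in luteal-like cells, against 33.1 ± 5.6 CPM in GC-like cells. Sp1, on the other side, was even over these classes (44.3 ± 4.0 and 41.2 ± 4.6 CPM in epithelial-like and GC-like cells). Reads carried over between neighbours were not tested.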

How the data were processed

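Ovaries of 8-week-old Fosl2F/F and Fosl2cKO mice were dissociated and sequenced with 10x Genomics 3′ chemistry, giving 4 matrices of UMI counts. Per the labels and the study's methods, the authors aligned reads to GRCm38 with Cell Ranger and deposited whole-number counts per gene and cell. The methods name CellBender for removing free RNA, but whether the deposited counts went through it is not given in the sources used here. The study's thresholds were applied (500 genes or more, UMIs above 1000, below 10% from mitochondria and below 0.1% from hemoglobin genes), and doublets were removed by Scrublet score (scanpy 1.11.5) at 0.8% per 1000 cells. That rate removed 4723 of 24298 cells (19.4%) from Fosl2F/F replicate 2, against 5.74% to 7.01% of cells from the other libraries. Scrublet's approximate neighbours changed some doublet calls, and with them the GC clusters, between computing settings. Exact neighbours were therefore used, a choice made after results had been seen and for repeatability alone. Total counts per library ran from 120327227 to 148836173 UMIs.

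Cells were normalised with SCTransform and integrated by reciprocal PCA in Seurat 5.3.0 on 3000 features and 30 dimensions, without Amh and Amhr2. Clusters (resolution 0.8, GCs 0.5) were named from marker lists. UMIs were summed per library and class and tested with edgeR 4.0.16 (quasi-likelihood test, TMM, filterByExpr, Benjamini-Hochberg over all genes), in classes with at least 20 cells in every library. Levels are CPM. The edgeR fit was tested on simulated counts, with a spread between libraries that was set in advance and not taken from these data. That test therefore gives no error rate or power for these libraries. Cell shares used cells thinned to 2000 UMIs and an exact permutation test. Levels across classes are descriptions without a test. DESeq2 1.42.0, other filters, clusterings and left-out libraries were tried as alternatives.

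The genes named were Amh and Amhr2, 31 pathway genes by role, the neighbouring genes, the 8 genes most like each member, and Fosl2, Inha and Inhba. Members and lists were chosen with earlier results of these data known. RefSeq promoters (GRCm38.p6) matched Amhr2 and held no entry for Amh.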

Additional observations from a re-analysis of the deposited data

Results flagged for a closer look

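Both members had fold changes of opposite sign between granulosa cell clusters. Amh was higher in both libraries labelled Fosl2cKO than in both Fosl2F/F libraries in GC5 (log2 fold change 2.31), GC3 (1.99), GC1 (1.51) and GC7 (1.38), and lower in both in GC6 (−0.20). Amhr2 was higher in GC7 (0.56), GC5 (0.53) and GC3 (0.53), and lower in GC6 (−0.41). None of these values was called, the difference between clusters was not tested, and the clusters share the same 4 libraries. How many of all genes separate between groups in this way was not counted. For 2 against 2 libraries the smallest exact permutation p is 0.33. The mitotic clusters GC3 and GC6, on opposite sides for both members, differ in Inhba, at 1061 to 3993 CPM in GC3 and 71.3 to 131 CPM in GC6.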

How the results depend on the processing

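In all GC-like cells, the log2 fold change of Amh stayed above 0 and outside the calls under every alternative run, from 0.41 without Fosl2F/F replicate 1 to 0.80 without Fosl2F/F replicate 2. That of Amhr2 ran from −0.093 to 0.30 when 1 library was left out, and it was below 0 without Fosl2cKO replicate 1. The difference in the share of cells with an Amhr2 UMI ran from −1.03 to 6.84 points, again below 0 without Fosl2cKO replicate 1. The number of genes called in GC-like cells was 1 in the main analysis, 169 with DESeq2 and 273 with no filter on low counts. It was 136 without Fosl2cKO replicate 1, 53 without Fosl2cKO replicate 2 and 0 without either Fosl2F/F library. Member values called in the clusters and other classes numbered 0 in the main analysis, 3 with no filter, and 0 to 3 when 1 library was left out (1 without Fosl2F/F replicate 2 and 3 without Fosl2cKO replicate 2). The causes were not tested.

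With the replicate number as a block, 13 genes were called, and Amh and Amhr2 gave 0.60 and 0.10 in GC-like cells. The labels do not say that a number pairs libraries, and the deviations of same-numbered libraries correlated at −0.14. With the pairing crossed, chosen after seeing the data, 1 gene was called in GC-like cells and 3 member values in the clusters, Amh and Amhr2 in GC3 among 884 genes called of 13412 and Amh in GC5 among 588 of 12129.

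In single clusters, the sign changed in 10 fits, each of a value smaller than its SE in the main analysis. Leaving out 1 library gave −0.23 to 0.37 for Amh in GC0, with −0.05 without Fosl2cKO replicate 1. It gave −1.47 to 1.52 in GC2, with 0.56 without Fosl2cKO replicate 1, and −0.24 to 0.0033 in GC4. For Amhr2 it gave −0.26 to 0.21 in GC0 and −0.17 to 0.47 in GC1. Amhr2 in GC0 was also 0.0037 with no filter and 0.0020 in cells under 5% mitochondrial UMIs.

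GC clusters were sensitive to single cells. At a resolution of 0.8 there were 12 clusters, the highest at 560.2 CPM of Amh and the lowest at 7.56 CPM, and with 1 more cell per library called a doublet there were 9, the lowest at 7.90 CPM. That alternative, the equal weight of clusters and the bins of Inhba UMIs were also chosen after seeing the data. Oocyte-like cells were few, at 19 to 91 a library, as were B-like cells, at 22 to 49. With 2 libraries a group, no exact permutation p under 0.33 is possible.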

Other observations

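In the unnamed cluster of 3563 cells led by Abcb1b, Hao2 and Star, Amhr2 measured 34.4, 44.3, 34.1 and 29.3 CPM in the 4 libraries. Per 100 Inha UMIs it held 8.01 Amhr2 UMIs and 1.28 Amh UMIs, against 2.93 and 4.51 in GC-like cells. In luteal-like cells, Amhr2 was lowest in Fosl2F/F replicate 2, where the class was also largest, at 1243 cells against 174 to 332 in the other libraries. A thinned GC4 or GC6 cell held a median of 1 Amh UMI and at most 9 or 7.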
